A study of Mus musculus with 6 samples.

Results

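Interferon-inducible GTPases of the GBP (guanylate-binding protein) and IRG (immunity-related GTPase) families were followed through the chronic stroke infarct. The 10 genes were chosen by name, as *Gbp2*, *Gbp3*, *Gbp4*, *Gbp5*, *Gbp6*, *Gbp7*, *Gbp9*, *Irgm1*, *Igtp*, and *Iigp1*, from the 46078 genes that the data cover. The tissue was 3 infarcts and 3 contralateral cortices of wild type male C57BL/6J mice, taken for RNA-Seq at 7 weeks after stroke from animals with a recorded age of 3 months. Stroke was made with the DH model, in which the distal middle cerebral artery is occluded and the mouse is then kept in a low oxygen atmosphere. All mice had the stroke and were perfused with saline when killed, so the contralateral cortex is the uninjured side of an operated brain, not the cortex of an unoperated mouse. The labels number the libraries within each region but do not say which infarct and which contralateral cortex belong to the same mouse, or whether the tissue samples came from separate mice. The *p* values therefore measure only the spread between these libraries.

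GBPs and IRGs are large GTPases that a cell makes after it meets interferons, above all interferon-γ. Interferon-γ signals through its receptor and JAK kinases to promoters that hold GAS elements, and it induces the transcription factor IRF1, which binds IRF-type elements. The finished proteins gather on the membranes of vacuoles that hold parasites and on bacteria, where GBPs help to expose microbial products to inflammasomes. IRGs fall into regulators, which include the proteins of *Irgm1* and *Igtp* and protect the cell's own membranes, and effectors, which include the protein of *Iigp1* and load onto the vacuole. In the brain, microglia, macrophages, astrocytes, and endothelial cells can all make these proteins in response to interferon.

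Promoter sequences are shown as background, because GAS and IRF-type elements are the classic sites through which interferon acts on such genes. The part of these sites in the levels measured here was not tested. RefSeq windows (GRCm38.p6), from 250 bases before to 50 bases after the annotated start, were on hand for 6 of the 10 genes, namely *Gbp2*, *Gbp3*, *Gbp5*, *Gbp7*, *Irgm1*, and *Igtp*. The other genes are *Gbp4*, *Gbp6*, *Gbp9*, and *Iigp1*. The search was for GAAANNGAAA, an IRF-type element, on either strand, and for TTCNNNGAA, the GAS core, which reads the same on both strands. Capitals mark the matches, and an IRF-type element on the opposite strand is read in reverse complement. In *Gbp3* and *Irgm1* the capitals are 2 overlapping IRF-type elements.
*Gbp2*, chr3:142620594-142620623, plus strand: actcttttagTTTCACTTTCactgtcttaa
*Gbp3*, chr3:142559896-142560025, plus strand: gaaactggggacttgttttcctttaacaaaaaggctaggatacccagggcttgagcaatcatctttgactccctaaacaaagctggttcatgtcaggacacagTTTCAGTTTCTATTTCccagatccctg
*Gbp5*, chr3:142496684-142496813, plus strand: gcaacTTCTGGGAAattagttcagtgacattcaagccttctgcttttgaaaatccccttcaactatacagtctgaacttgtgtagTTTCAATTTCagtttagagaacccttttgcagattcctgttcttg
*Gbp7*, chr3:142530196-142530325, plus strand: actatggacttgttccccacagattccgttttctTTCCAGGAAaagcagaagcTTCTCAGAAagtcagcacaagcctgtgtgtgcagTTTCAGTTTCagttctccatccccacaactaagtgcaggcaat
*Irgm1*, chr11:48871428-48871457, minus strand: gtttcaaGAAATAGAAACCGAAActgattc
*Igtp*, chr11:58199426-58199555, plus strand: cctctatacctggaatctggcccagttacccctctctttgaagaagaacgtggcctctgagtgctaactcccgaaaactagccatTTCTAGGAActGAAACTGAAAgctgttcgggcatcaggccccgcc
RefSeq gives *Gbp3* a pair of windows, so the 6 genes have 7 windows. The IRF-type element was present in 6 of the 7, at least 1 window of each gene and not the second window of *Gbp3*, against 3.44% of 32851 RefSeq windows of the same length. The GAS core was present in 3 of the 7 (*Gbp5*, *Gbp7*, and *Igtp*), against 8.3% of all windows, and the same 3 windows held both, against 0.454%. The IRF-type elements lay from 59 to 50 bases before the start in *Gbp2*, from 45 to 30 in *Gbp3*, from 165 to 156 in *Gbp5*, from 53 to 44 in *Gbp7*, from 30 to 15 in *Irgm1*, and from 34 to 25 in *Igtp*. Those of *Gbp2* and *Irgm1* lie inside an exon of a GENCODE transcript that starts upstream of the RefSeq start. *Gbp5* held a further GAS core from 52 to 44 bases before the start, past the end of the stretch shown. These matches describe the letters in the windows and say nothing of which factor was bound. The genes are relatives and several lie in the same cluster, so the windows are not independent of each other.

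Sequence around the pair of elements in *Igtp* recurred in other IRG genes. In *Igtp*, *Irgm2*, *Tgtp1*, and *Tgtp2*, 2 bases separated the GAS core from the IRF-type element that follows it, and these relatives, chosen after their values were seen, are shown for comparison.
*Irgm2*, chr11:58214847-58214976, plus strand: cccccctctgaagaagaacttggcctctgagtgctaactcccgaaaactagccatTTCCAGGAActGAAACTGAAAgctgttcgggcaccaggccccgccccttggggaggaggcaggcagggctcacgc
*Tgtp1*, chr11:48992260-48992389, minus strand: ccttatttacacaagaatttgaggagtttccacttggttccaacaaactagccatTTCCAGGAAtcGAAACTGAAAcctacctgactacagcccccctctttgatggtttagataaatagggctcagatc
*Tgtp2*, chr11:49064219-49064348, minus strand: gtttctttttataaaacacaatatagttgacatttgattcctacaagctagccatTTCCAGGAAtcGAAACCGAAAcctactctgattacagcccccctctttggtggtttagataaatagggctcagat
Windows were on hand for 9 of 16 further GBP and IRG genes of the mouse, of which 6 held the IRF-type element and 4 held both elements.

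**Figure D1:**
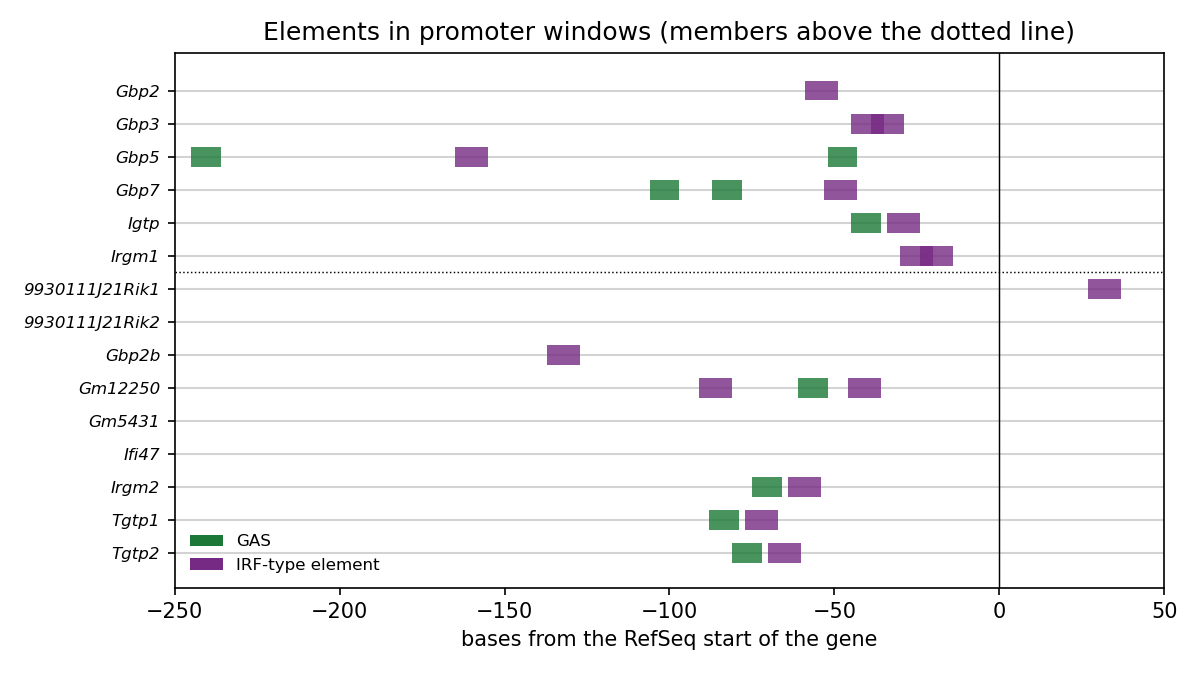
Position of each GAS core (green) and IRF-type element (purple) in bases from the RefSeq start, with 1 row per gene, the 6 GBP and IRG genes of the main set above the dotted line and 9 relatives below it. All 6 rows above the line hold a purple block (in *Gbp3*, from 1 of its windows), and 3 of the 9 rows below it hold no block.

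Counts on genes ranged from 12146959 to 13427057 in infarcts and from 11943570 to 19933962 in contralateral cortices, and 65.7% to 73.4% of tallied reads fell on genes. Of 15554 genes that passed a filter on low counts, 3999 (25.7%) were upregulated in infarcts and 3256 (20.9%) were downregulated. In 11246 genes (72.3%) the 3 infarcts all lay on the same side of the 3 contralateral cortices. Marker genes of neurons summed to 6852 to 7941 CPM (counts scaled to a fixed library total) in contralateral cortices and to 443, 627, and 1181 CPM in infarcts 1, 2, and 3. In bulk tissue, fewer cells of a type and less RNA per cell cannot be told apart, nor can more cells of a type and more RNA per cell.

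All 10 GBP and IRG genes passed the filter and all 10 were upregulated in infarcts, against the 25.7% of all genes tested. Upregulated means an adjusted *p* under 0.05 over all genes tested in edgeR's quasi-likelihood test and a log2 fold change over 1. In none of the 10 did the regions overlap, which also held for 72.3% of genes tested. The log2 fold changes ran from 2.72 in *Igtp* to 5.11 in *Iigp1*, with a median of 3.49, compared with a median of 0.03 over all genes tested. The lowest infarct exceeded the highest contralateral cortex by 4.28 times in *Gbp7*, the closest gap, and by 18.7 times in *Gbp2*, the widest. Summed over the 10 genes, CPM scaled by TMM (trimmed mean of M values) came to 1150, 740, and 595 in infarcts 1, 2, and 3, and to 56.2, 65.8, and 55.8 in contralateral cortices 1, 2, and 3.

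**Figure D2:**
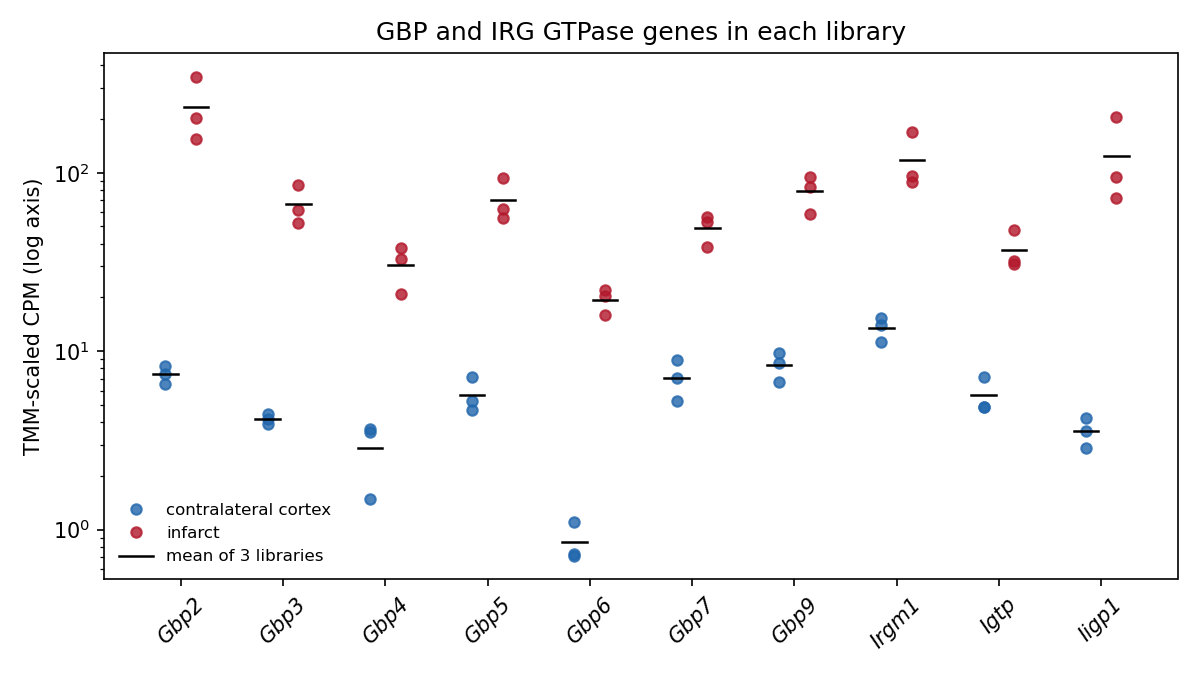
TMM-scaled CPM of the 10 genes on a log axis in each of 3 contralateral cortices (blue) and 3 infarcts (red), with lines at the means. In every gene the 3 red points lie above the 3 blue points, and *Gbp6* has the lowest mean in both regions.

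The GBP genes of chromosome 3 include the most abundant GTPase of the set. *Gbp2* (ENSMUSG00000028270, chr3:142620602-142638008), whose protein coats vacuoles and bacteria that have entered the cell, had 344, 203, and 155 CPM in infarcts 1, 2, and 3, and 6.53, 8.27, and 7.47 CPM in contralateral cortices 1, 2, and 3. Infarct 1 was the highest library, and even infarct 3 stood far above all contralateral cortices. The means were 234 ± 98.4 and 7.43 ± 0.871 CPM (SD, *n* = 3 each), a log2 fold change of 4.98 (SE 0.33, adjusted *p* = 2.86e-06, edgeR).

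*Gbp3* (ENSMUSG00000028268, chr3:142560026-142573209), whose protein also gathers on the vacuole of *Toxoplasma*, had 85.9, 62.2, and 52.1 CPM in the infarcts and 3.92, 4.17, and 4.43 CPM in the contralateral cortices. The contralateral values were the most even of the set, with a coefficient of variation of 6.14%, while infarct 1 was again the highest library. The difference was 4.001 on the log2 scale (SE 0.23, adjusted *p* = 5.83e-07, edgeR), with the smallest adjusted *p* of the 10 genes.

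*Gbp5* (ENSMUSG00000105504, chr3:142493978-142522344), known for promoting assembly of the NLRP3 inflammasome in macrophages, had 93.9, 62.4, and 55.6 CPM in the infarcts and 4.70, 7.16, and 5.26 CPM in the contralateral cortices. Infarct 1 stood apart from the other two, which were close to each other. The regions differed by 3.63 on the log2 scale (SE 0.26, adjusted *p* = 2.32e-06, edgeR).

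*Gbp7* (ENSMUSG00000040253, chr3:142530342-142550149), linked in macrophages to the assembly of the NADPH oxidase, had 56.2, 53.0, and 38.1 CPM in the infarcts and 7.10, 8.92, and 5.26 CPM in the contralateral cortices. It had the smallest change of the chromosome 3 genes, at a log2 fold change of 2.78 (SE 0.24, adjusted *p* = 6.90e-06, edgeR). The predicted gene *Gm43802* overlaps 11.3% of the exon length of *Gbp7* on the same strand, so reads from that stretch cannot be assigned to either gene with certainty.

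The 3 GBP genes of the set that lie on chromosome 5 were upregulated by 3.22 to 4.54 on the log2 scale. *Gbp9* (ENSMUSG00000029298, chr5:105077630-105139539), whose protein is found at the *Toxoplasma* vacuole, had 94.6, 82.7, and 58.6 CPM in the infarcts and 9.82, 8.60, and 6.74 CPM in the contralateral cortices. The difference came to 3.22 on the log2 scale (SE 0.23, adjusted *p* = 2.18e-06, edgeR), and the regions were well separated.

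*Gbp4* (ENSMUSG00000079363, chr5:105115767-105139586) had 32.8, 37.7, and 21.02 CPM in the infarcts and 3.66, 3.52, and 1.48 CPM in the contralateral cortices. Library 3 was the lowest of both regions, and contralateral cortex 3, with 16 counts, made *Gbp4* the most variable gene of the set among contralateral cortices, with a coefficient of variation of 42.3%. The log2 fold change was 3.36 (SE 0.35, adjusted *p* = 3.27e-05, edgeR).

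*Gbp6* (ENSMUSG00000104713, chr5:105270702-105293698) had 20.5, 22.0, and 15.9 CPM in the infarcts and 0.731, 0.716, and 1.11 CPM, or 14, 11, and 12 counts, in the contralateral cortices. Its infarcts were the most even of the 10 genes, with a coefficient of variation of 16.4%. The log2 fold change was 4.54 (SE 0.27, adjusted *p* = 7.11e-07, edgeR), the largest among the genes of the set on chromosome 5. *Gbp6* is also the least certain gene of the set, because 67.3% of the 75-base stretches of its transcripts occur in transcripts of another gene as well, so that reads of that length cannot be told apart, including 40.4% in *Gbp10*, of whose own stretches 77.8% are shared. The gene model *Gm43302* overlaps 29% of the exon length of *Gbp6* and 46.3% of that of *Gbp10* on the same strand, and had 0 counts in all 6 libraries. Reads on such overlaps can be tallied as ambiguous and lost to each gene, so the 0 counts do not show that *Gm43302* was silent. *Gbp10* itself had 83, 72, and 55 counts in the infarcts and 0 in every contralateral cortex, which is at least 24.9-fold higher with each contralateral library set to 3 counts.

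The IRG regulators *Irgm1* and *Igtp*, both on chromosome 11, had the higher contralateral levels of the 3 IRG genes of the set. *Irgm1* (ENSMUSG00000046879, chr11:48861968-48871683), needed for resistance to mycobacteria and tied to autophagy and to the survival of T cells, had 170, 89.3, and 95.6 CPM in the infarcts and 11.3, 15.3, and 14.0 CPM in the contralateral cortices. It was the only gene of the 10 in which infarct 2, not infarct 3, was the lowest infarct. The log2 fold change was 3.13 (SE 0.27, adjusted *p* = 1.14e-05, edgeR), and none of its 75-base stretches occurs in another annotated gene.

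*Igtp* (ENSMUSG00000078853, chr11:58199556-58207591), whose protein sits on the endoplasmic reticulum and is also called IRGM3, had 47.5, 32.1, and 31.0 CPM in the infarcts and 4.86, 4.88, and 7.20 CPM in the contralateral cortices. Contralateral cortex 3 was the highest on its side and infarct 1 the highest on the other. The log2 fold change of 2.72 (SE 0.25, adjusted *p* = 9.64e-06, edgeR) was the smallest of the 10 genes. Of its 75-base stretches, 7.8% occur in another gene, mostly its relative *Irgm2*.

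The effector *Iigp1* (ENSMUSG00000054072, chr18:60376027-60392634), whose protein is called IRGA6 and is held inactive by the regulators, had 204, 94.9, and 72.3 CPM in the infarcts and 3.55, 4.23, and 2.86 CPM in the contralateral cortices. Its infarcts were the most uneven of the set, with a coefficient of variation of 56.9% and infarct 1 at 2.82 times infarct 3. The log2 fold change was 5.11 (SE 0.46, adjusted *p* = 4.37e-05, edgeR), with the largest SE of the 10 genes.

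Levels were compared between genes as CPM per kb of exon. In infarcts, *Gbp2* came first at 93.1 ± 39.1 CPM per kb (SD, *n* = 3) and held that place in all 3 libraries. It was followed by *Iigp1* at 21.3 ± 12.1, *Gbp3* at 20.4 ± 5.3, *Irgm1* at 20.3 ± 7.69, *Igtp* at 18.2 ± 4.58, and *Gbp9* at 15.2 ± 3.55 CPM per kb. These 5 genes changed places between libraries, and the gaps between neighbors in the order were smaller than their SDs. *Gbp5* at 10.6 ± 3.08 and *Gbp7* at 8.75 ± 1.72 CPM per kb also did not differ beyond their spread. *Gbp4* at 4.07 ± 1.14 and *Gbp6* at 3.27 ± 0.535 CPM per kb were 9th and 10th in each of the 6 libraries.

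In contralateral cortices, *Gbp2* at 2.95 ± 0.346, *Igtp* at 2.79 ± 0.665, and *Irgm1* at 2.33 ± 0.349 CPM per kb led, and *Igtp* was above *Gbp2* in contralateral cortex 3. *Gbp9* at 1.62 ± 0.3, *Gbp3* at 1.28 ± 0.0784, and *Gbp7* at 1.26 ± 0.326 CPM per kb came next, and *Gbp3* and *Gbp7* did not differ beyond their spread. *Gbp2* and *Igtp*, and *Igtp* and *Irgm1*, were closer than the SD of *Igtp*, whereas *Gbp2* was above *Irgm1* in each contralateral library. *Gbp5* followed at 0.860 ± 0.194 and *Iigp1* at 0.609 ± 0.118 CPM per kb. *Iigp1* was 8th in each contralateral cortex but 2nd, 3rd, and 5th in infarcts 1, 2, and 3.

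The makeup of the set differed between the regions. *Gbp2* held 45.4%, 42.3%, and 40.1% of the summed CPM per kb of the 10 genes in the infarcts and 19.6%, 21.5%, and 20.9% in the contralateral cortices. *Igtp* held 7.81%, 8.31%, and 9.97% in the infarcts and 18.1%, 15.8%, and 25.1% in the contralateral cortices. For these genes, and for *Iigp1*, *Irgm1*, *Gbp7*, and *Gbp9*, the shares of the regions did not overlap. The mean share of *Iigp1* was 9.42% in infarcts and 4.28% in contralateral cortices, and that of *Irgm1* was 9.48% and 16.3%. For *Gbp7* the mean shares were 4.23% and 8.86%, and for *Gbp9* 7.27% and 11.5%. *Gbp3*, by contrast, held 9.70% and 8.99%, and its shares overlapped, as did those of *Gbp4*, *Gbp5*, and *Gbp6*. These shares are descriptions and were not tested.

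**Figure D3:**
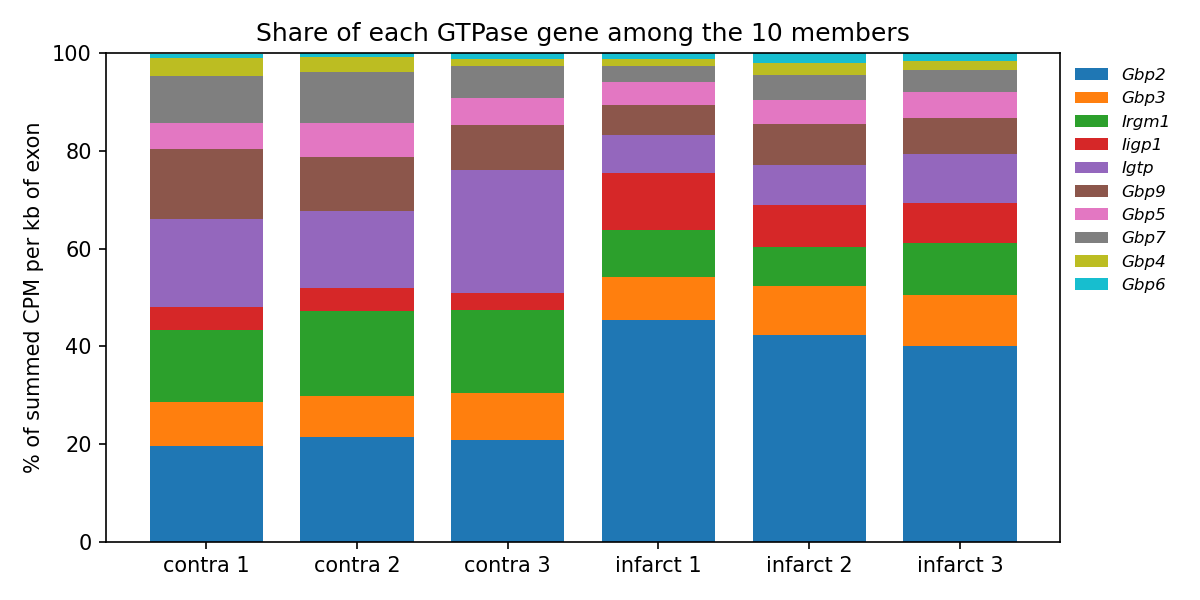
Share of each gene, in percent, of the summed CPM per kb of exon of the 10 genes, with 1 bar per library. The blue *Gbp2* block is 40.1% to 45.4% of each infarct bar and 19.6% to 21.5% of each contralateral bar.

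The infarcts also differed among themselves in a shared direction. Infarct 1 was the highest infarct for 8 of the 10 genes, with infarct 2 the highest for *Gbp4* and *Gbp6*, and infarct 3 was the lowest for 9 of the 10. How many of all genes tested share this order was not counted, so it is not shown to be particular to the GTPases. The ratio of infarct 1 to infarct 3 ran from 1.29 in *Gbp6* to 2.82 in *Iigp1*, with 2.22 in *Gbp2*. Markers of T cells summed to 99.5, 37.3, and 23.5 CPM in infarcts 1, 2, and 3 and to 0.391 to 0.627 CPM in contralateral cortices, where *Cd3d* and *Cd8a* had 0 counts. T cells and NK cells are the main makers of interferon-γ. Markers of NK cells summed to 45.1, 29.3, and 18.6 CPM in the infarcts and to at most 0.209 CPM in the contralateral cortices, where *Klrb1c*, *Eomes*, and *Klra8* had 0 counts. The order of the sums did not hold for every NK cell marker. *Klrb1c*, *Klrk1*, *Eomes*, and *Nkg7* were highest in infarct 1, but *Ncr1* and *Klra8* were highest in infarct 2. *Ncr1* had 3.584, 5.654, and 2.935 CPM in infarcts 1, 2, and 3, and *Klra8* had 1.593, 1.762, and 1.502 CPM. All 5 T cell markers that could be tested and all 6 NK cell markers were upregulated, each list being 6 genes, against 25.7% of all genes tested. These markers had few or no counts in contralateral cortices and passed the filter only through the infarcts. Their calls were therefore close to fixed in advance.

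Each count of upregulated markers below stands beside 25.7% of all genes tested. Markers of monocyte-derived macrophages summed to 9486, 8152, and 5818 CPM in infarcts 1, 2, and 3 against 91.0 to 126 CPM in contralateral cortices, and 6 of 6 were upregulated. Of the infarct sums, *Lyz2* alone gave 7853, 6830, and 4665 CPM. Markers of B and plasma cells summed to 2378, 951, and 339 CPM in the infarcts, of which *Jchain* gave 2003, 723, and 162 CPM, and were 6 of 6 upregulated. Apart from *Jchain* and *Sdc1*, these markers also had few or no contralateral counts and passed the filter only through the infarcts. Markers of dendritic cells summed to 487, 357, and 319 CPM, of which *Itgax*, which macrophages also express, gave 432, 295, and 274 CPM, and 3 of 6 were upregulated. *Flt3*, *Zbtb46*, and *Siglech* were not called, with log2 fold changes of -0.54, -0.39, and 0.02. Markers of microglia were more even, at 1364, 1201, and 1224 CPM in infarcts against 345 to 430 CPM in contralateral cortices, with 4 of 6 upregulated. Endothelial markers summed to 508, 420, and 391 CPM against 311 to 355 CPM, with 2 of 6 upregulated. That share is near the share over all genes tested and is no result about these markers. Astrocyte markers ran the other way among infarcts, at 2722, 2931, and 3672 CPM against 1399 to 1709 CPM. Of these, 2 of 6 were upregulated, *Gfap* and *Aqp4*, against 25.7% of all genes tested, which is likewise no result about the list. *Aldoc*, *Aldh1l1*, *Slc1a3*, and *Gja1* were not called, with log2 fold changes of -0.99, -0.49, -0.37, and 0.59. Oligodendrocyte markers, with 3 of 6 upregulated, were also highest in infarct 3, at 4103, 4727, and 6691 CPM against 2131 to 2538 CPM. Fibroblast markers, with 6 of 6 upregulated, were highest in infarct 2, at 8060, 8680, and 6927 CPM against 146 to 189 CPM. The neuronal markers were all 6 downregulated, against 20.9% of all genes tested. Their sum was highest in infarct 3 and lowest in infarct 1, the reverse of most of the GTPases. The part of cell makeup in the level of the GTPase genes was not tested.

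**Figure D4:**
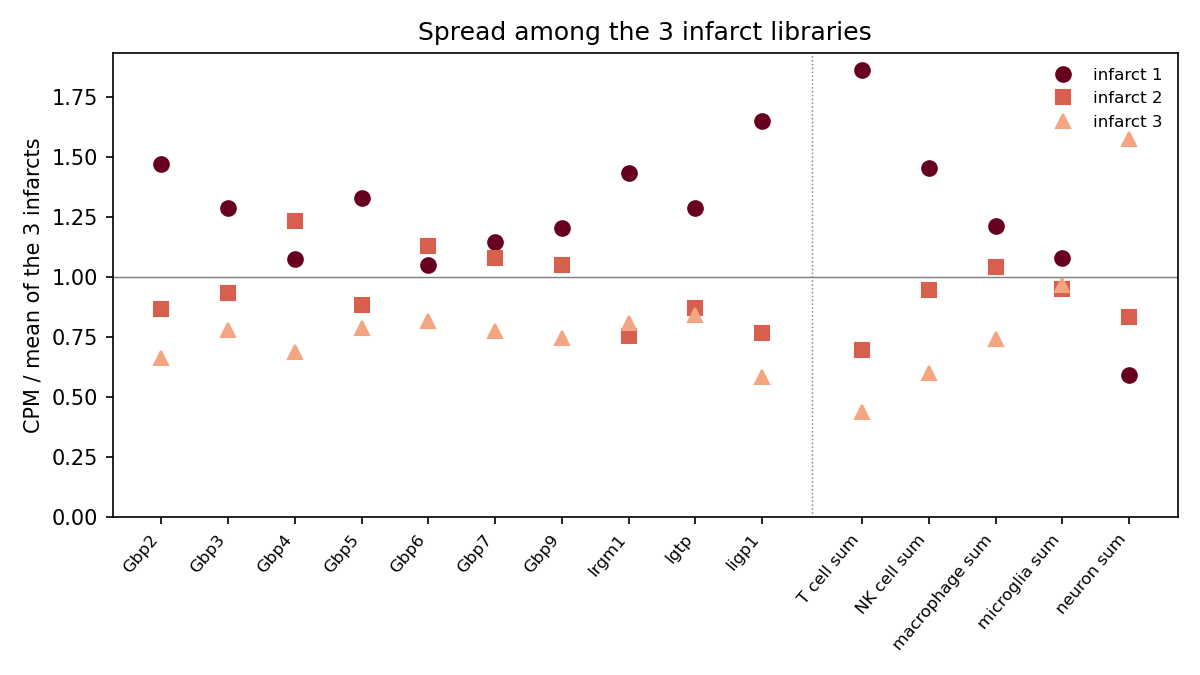
CPM in each of 3 infarcts divided by the mean of the 3, for the 10 GTPase genes and for the summed markers of 5 cell types, on a linear axis. Infarct 1 (circles) is the highest for 8 of 10 genes and for T cell, NK cell, macrophage, and microglial markers, and it is the lowest for neuronal markers.

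Beyond the 10 genes, 16 further GBP and IRG genes and relatives were measured, and 13 passed the filter. All 13 were upregulated, against 25.7% of all genes tested. The median log2 fold change was 5.22, or 4.86 with *Gbp10* at its lower bound. A minimum of 10 counts in every library left 4 to test, so the others passed the filter mostly through the infarcts. *Gm5431*, an IRG relative, had the smallest adjusted *p*, with 53.6, 34.7, and 33.0 CPM in the infarcts and 0.522, 0.391, and 0.369 CPM in the contralateral cortices (log2 fold change 6.50, SE 0.31, adjusted *p* = 2.61e-07, edgeR), although 27.2% of its 75-base stretches occur in other genes. *Irgm2*, which encodes a further IRG regulator, had 109, 72.8, and 56.2 CPM in the infarcts and 4.91, 5.99, and 4.89 CPM in the contralateral cortices (log2 fold change 3.91). *Gbp8* rose by 5.55 and *9930111J21Rik2* by 3.41 on the log2 scale, the latter with 52.3% of its 75-base stretches shared with other genes. The shared part was larger in *Gvin1* (98.3%), *Tgtp2* (81.4%), *Gbp10* (77.8%), *Tgtp1* (77.2%), and *9930111J21Rik1* (76%). The counts of these genes may therefore miss reads from the shared stretches. The genes that did not pass the filter were *Gbp2b* with 16, 3, and 3 counts in infarcts and 0 in contralateral cortices, *Gbp11* with 10, 10, and 6 against 1, 4, and 1 counts, and *Irgc1*, a testis-type IRG, with 6, 1, and 0 against 1, 7, and 4 counts. Infarct 1 was the highest infarct in 11 of the 13 tested relatives and infarct 3 the lowest in 10 of the 13, an order not counted over all genes tested.

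The receptor genes of interferon-γ and *Irf1* were upregulated in infarcts, but the transcript of the ligand was near 0. *Ifng* had 2, 6, and 0 counts in the infarcts and 0 in each contralateral cortex, too few to test. Of the 16 genes of type II interferon signaling, 11 were tested, 8 were upregulated, none was downregulated, and 3 were not called, with a median log2 fold change of 2.64. Over all genes tested, 25.7% were upregulated and 20.9% downregulated. The receptor chain *Ifngr1* averaged 101 ± 30.2 CPM in infarcts against 11.03 ± 2.34 CPM (SD, *n* = 3, with a log2 fold change of 3.20), whereas the change of *Ifngr2*, the signaling chain, was 1.18. *Irf1* rose by 3.68 and *Socs3*, a feedback inhibitor of cytokine signaling, by 3.44 on the log2 scale. *Il12a*, which encodes an interleukin 12 subunit, went the other way with 0, 2, and 1 counts in infarcts and 13, 10, and 6 in contralateral cortices, but did not pass the filter. The other interleukin 12 genes of the list, *Il12b* and *Il12rb1*, were upregulated. *Il12b* had 30, 21, and 19 counts in infarcts and 0 in each contralateral cortex, and *Il12rb1* rose by 2.64 on the log2 scale. *Jak1*, *Ptpn2*, and *Il18* were not called, with log2 fold changes of 0.66, 0.34, and -0.01.

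Of the 9 genes of type I interferon signaling, 8 were tested, 7 were upregulated, and none was downregulated, with a median of 1.91. The shares over all genes tested were 25.7% upregulated and 20.9% downregulated. *Ifnb1*, the gene of interferon-β, had 0 counts in all 6 libraries. The receptor genes *Ifnar1* and *Ifnar2* rose by 1.19 and 2.74 on the log2 scale. *Stat2* and *Irf9*, which act in the type I transcription factor complex, rose by 1.89 and 2.61, *Tyk2* by 1.94, and *Irf7* by 6.47, while *Irf2* had a log2 fold change of 0.97 and was not called.

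Other interferon-γ targets and inflammasome genes shared the direction of the GTPases. All 14 other interferon-γ targets were upregulated, against 25.7% of all genes tested. Their median log2 fold change was 4.42, or 4.35 with 4 genes at their lower bounds. A minimum of 10 counts in every library left 6 to test, so the others passed the filter mostly through the infarcts. Among them were the MHC class I pathway genes *B2m* (4.20) and *Tap1* (4.83), the transcription factor *Irf8* (4.75), and *Cd274* (3.71), which encodes PD-L1. All 7 inflammasome genes were upregulated, with a median of 4.33, again against 25.7% of all genes tested. The same minimum of 10 counts left 3 of them to test. Those upregulated included *Casp4*, which encodes the LPS sensor caspase-11 (6.02), *Aim2* (3.86), *Pycard* (4.37), and *Casp1* (3.46). *Casp4* averaged 23.4 ± 3.94 CPM in infarcts against 0.345 ± 0.139 CPM.

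Of 13 genes of the autophagy conjugation machinery and ubiquitin partners that help IRGs and GBPs to find vacuoles, 3 were upregulated, 2 were downregulated, and 8 were not called, with a median log2 fold change of 0.22. These shares are near those over all genes tested, 25.7% upregulated and 20.9% downregulated, and are no result about the list. *Trim21*, an interferon-inducible ubiquitin ligase, rose by 3.39, *Gabarap* by 1.30, and *Atg7* by 1.09 on the log2 scale. The ATG8 family genes *Gabarapl1* and *Map1lc3a* fell by 1.23 and 1.75. The lists overlap in function and, like the 10 GTPases, come from the same 6 libraries, so their counts are not independent evidence of each other.

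**Figure D5:**
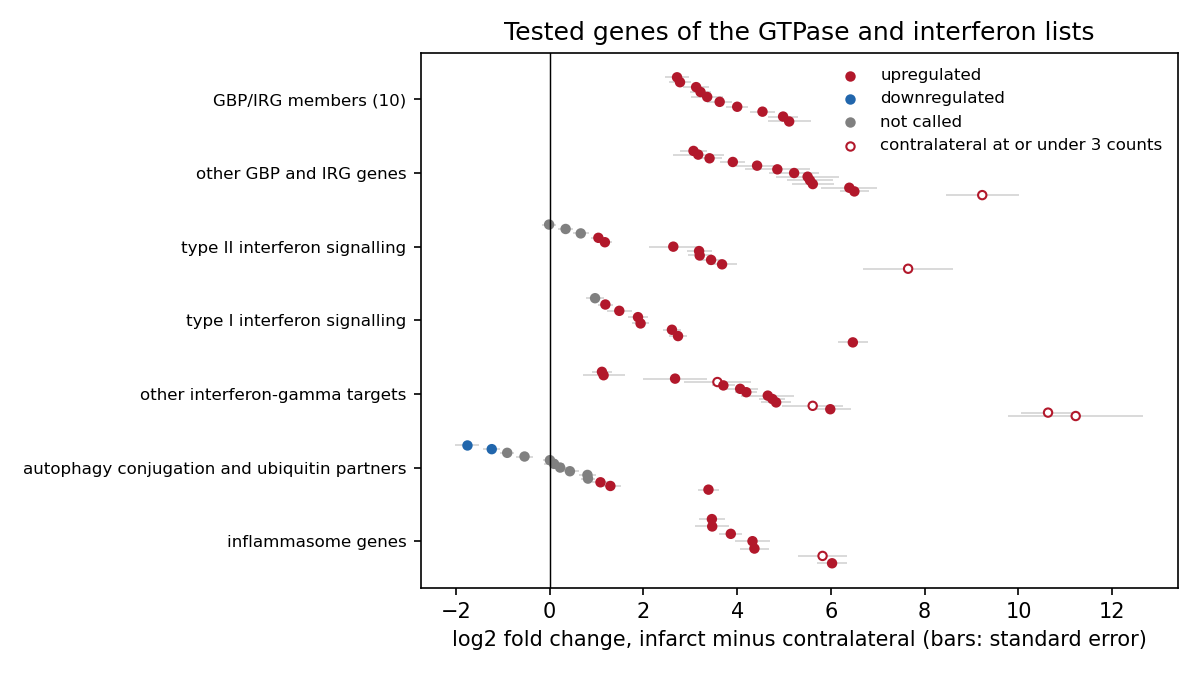
Log2 fold change, infarct minus contralateral cortex, of each tested gene of 7 lists, with bars for the SE. Open circles mark genes with at most 3 counts in each contralateral library, whose fitted values depend on the prior count. The 10 GTPases lie between 2.72 and 5.11, and of the lists shown only the autophagy and ubiquitin list has downregulated genes (blue).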

How the data were processed

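RNA-Seq libraries of 3 infarcts and 3 contralateral cortices were analyzed, 1 library per tissue sample, grouped by the sample titles. The authors trimmed reads with Trimmomatic 0.32, aligned them to GRCm38 with STAR 2.5.2b and deposited HTSeq read counts per Ensembl gene without normalization. The annotation and strand setting of the counting are not given in the sources used here. Entries that name no gene, 26.6% to 34.3% of tallied reads per library, were left out. They include reads that did not align uniquely (14.1% to 18.2%) and reads that were ambiguous between genes (2.35% to 2.64%). Genes with shared or overlapping stretches may therefore be undercounted. Symbols, positions, and exon lengths came from GENCODE M21 (45229 of 46078 identifiers found).

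Counts were fitted with edgeR 4.0.16 in R 4.3.3 (filterByExpr, TMM, robust quasi-likelihood test, region as the only term), with Benjamini-Hochberg adjustment over 15554 genes. The biological coefficient of variation was 0.22. Lower bounds set each contralateral library of a gene with at most 3 counts per library to 3 counts and cover counting error only. Pearson correlations ranked genes by likeness to the mean log2 CPM of the 10 genes. The code was tested on simulated data. The alternatives were DESeq2 1.42.0, limma 3.58.1 (voom), other scalings, filters and thresholds, thinned counts, a replicate block, and each library left out. The genes named are the 10 GTPases and, from each other list, up to 4 with the smallest p in each direction, the interferon ligands, receptors and their factors, and those against the list's direction. Outside this rule are Gbp10, Tgtp1, Tgtp2, Gvin1, 9930111J21Rik1, Il12b, Il12rb1, untested relatives, genes not called, cell type markers, and neighbors. These were chosen after their values were seen. One gene that this rule covers is not reported here. The members and lists were chosen with earlier results of these data known. Same-numbered infarct and contralateral libraries had correlations of deviations of -0.19, 0.101, and 0.0011. Differently numbered ones ran from -0.238 to 0.178, so this check cannot decide on pairing. The numbers were not taken as pairs because the labels do not say that they are.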

Additional observations from a re-analysis of the deposited data

How the results depend on the processing

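All 10 GTPase genes kept their direction and their call in each of 15 alternatives, which gives 150 of 150 values, with log2 fold changes between 2.52 and 5.39 and a largest adjusted *p* of 0.00178. Leaving out 1 library at a time moved *Iigp1* between 4.56 and 5.39, *Gbp2* between 4.61 and 5.22, and *Igtp* between 2.52 and 2.92. Scaling by library totals shifted all genes by 0.203 (log2), and the GTPases remained called. With a replicate block all 10 were upregulated, genes beside the GTPase genes called downregulated were 1 in place of 2, and no other list count moved by over 1.5 times. The correlations of same-numbered libraries lay within the range of the differently numbered ones, so they cannot decide whether the numbers mark pairs.

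Of 288 counts for lists, 271 stayed within 1.5 times of the reported count. A minimum of 10 counts in every library left 4 further GBP and IRG genes, 6 interferon-γ targets, and 3 inflammasome genes to test, and all of these were upregulated. For type II signaling, DESeq2 and a fit with no filter each called 1 gene, *Il12a*, downregulated. Autophagy and ubiquitin genes called upregulated were 5 with library totals, 5 with no fold threshold, and 1 with glmTreat, and those called downregulated were 4 with no fold threshold and 1 with glmTreat. Genes beside the GTPase genes called downregulated were 1 with library totals, 5 with no fold threshold, 1 with glmTreat, and 1 to 2 when a library was left out (1 without infarct 1, contralateral cortex 1, or contralateral cortex 2). The causes were not tested. Depth limits *Gbp6*, with 11 to 14 counts per contralateral library, and leaves *Ifng* and *Ifnb1* too low to compare.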

Other observations

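Genes next to the GTPase genes on the chromosomes were also measured. Within 250000 bases of a GTPase gene, 23 genes outside the families (predicted genes left out) were tested, a set chosen after values were seen, and 7 were upregulated (*Pdlim5*, *Zfp951*, *Abcg3*, *Rack1*, *Trim7*, *Psme2b*, and *Smim3*), 2 were downregulated (*Lrrc8b* and *Zfp692*), and 14 were not called, with a median log2 fold change of 0.35. Over all genes tested 25.7% were upregulated and 20.9% downregulated, so the upregulated share is no result about the neighbors. *Abcg3*, in the chromosome 5 stretch, had the largest change, at 4.17 (SE 0.31, adjusted *p* = 2.89e-06, edgeR), at 11.5, 10.4, and 7.92 CPM in infarcts against 0.679, 0.456, and 0.461 CPM on the contralateral side. *Lrrc8b*, a subunit of volume-regulated anion channels, had a change of -1.58, with 222, 228, and 277 CPM in infarcts and 572, 879, and 718 CPM in contralateral cortices.

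Across the 6 libraries, the genes outside the families whose log2 CPM was most like the mean of the 10 GTPases were *Nfkb1* (Pearson *r* = 0.99989), *Nfatc3* (0.99985), *Ikzf3* (0.99977), *Szrd1* (0.99977), and *Itih5* (0.99967). With 3 libraries per region the measure separates genes little, and 3411 of 15531 genes had *r* over 0.95. All genes were read from the same 6 libraries, which differ in depth and in their cell type markers, so these values describe the ranking only.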
